A study of Mus musculus with 8 samples.

Results

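The genes described here are Il10, which encodes the anti-inflammatory cytokine interleukin 10, and 9 genes tied to IL-10-producing type 1 regulatory T cells: Maf, Prdm1, Ahr, Eomes, Lag3, Havcr2, Tigit, Cd200r1 and Itga2. They were taken by gene symbol, and all 10 were found among the 11354 genes of the deposited count table. The set was chosen on results of these same libraries: the lower Il10 of the libraries labelled Nlrp6 knock-out, and its higher level in 1 of them, were known. For that reason the difference between the labels is given for these genes as a description, with no p-value. Counts of those past the threshold used for all genes, in the main fit and in other fits, are given as descriptions, and nothing is read from them. All 10 genes passed the filter on low counts, as did every gene of the table.

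The study recovered mouse CD4 T cells after adoptive transfer into RAG-/- hosts, which lack mature lymphocytes of the T and B lineages but keep myeloid and other innate cells. There were 8 RNA-seq libraries on the Black6 background. In 4 of them the transferred cells were labelled wild type (WT 1, WT 2, WT 4 and WT 5, by host number), and in the other 4 they were labelled Nlrp6-/- (KO 1, KO 2, KO 4 and KO 5). By its labels, the comparison asks how CD4 T cells without Nlrp6, a cytosolic sensor protein of the NOD-like receptor family, differ from wild-type cells after transfer in a lymphocyte-deficient host. The labels name the host spleen as the source in the cell type field and the colonic lamina propria in the extraction protocol, so the tissue is uncertain. They give no age, and they do not say whether a host held both kinds of cells.

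The label check went against the labels. Nlrp6 itself had 5, 3, 3 and 8 counts in the libraries labelled wild type and 487, 329, 477 and 648 in those labelled knock-out, in the order of hosts 1, 2, 4 and 5. In CPM (counts scaled to the library total, with TMM factors) this was 0.121 ± 0.0625 against 12.8 ± 3.34 (SD, n = 4 each), a log2 difference of 6.70 ± 0.32 (SE). Where the reads lie in the gene, and so whether they fall in a deleted part, cannot be seen in gene totals. Whether the labels are exchanged was not tested, and if they are, every direction below turns. Each direction is that of libraries labelled knock-out against libraries labelled wild type, and "wild-type" and "knock-out" libraries below mean the labels only. Total counts ran from 35198192 in KO 4 to 40310721 in WT 1. All 13 genes of the CD4 T cell identity list were measured, with Cd4 at a mean of 1446 CPM in the wild-type libraries and 1222 CPM in the knock-out ones.

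Interleukin 10 is released by several kinds of T cell and by macrophages, dendritic cells, B cells and mast cells, and it restrains antigen-presenting cells and inflammatory T cells. Type 1 regulatory T cells are CD4 T cells that make IL-10 without stable expression of Foxp3, and they are known for limiting inflammation in the intestine. The transcription factors c-Maf, Blimp-1 (from Prdm1), AHR and Eomes take part in switching on Il10 in CD4 T cells, and LAG-3 together with the integrin CD49b (from Itga2) is used to recognise the cells. TIM-3 (from Havcr2), TIGIT and LAG-3 are inhibitory receptors that appear with IL-10 on chronically stimulated T cells.

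Il10 was the most different of the 10 genes. It lies on chromosome 1 (chr1:131019845-131024970, GRCm38). It read 133.5, 92.1, 68.5 and 80.8 CPM in WT 1, WT 2, WT 4 and WT 5, and 10.3, 6.34, 40.8 and 9.86 CPM in KO 1, KO 2, KO 4 and KO 5. These values rest on 2707 to 5452 counts under the wild-type label and 249 to 1392 under the knock-out label. No knock-out library reached the lowest wild-type one. The means were 93.7 ± 28.2 and 16.8 ± 16.1 CPM (SD, n = 4 each), a log2 difference of -2.49 ± 0.53 (SE). KO 4 stood apart from the rest of its label: it held 4.62 times the mean of the other 3 knock-out libraries (8.84 ± 2.18 CPM), and it reached 43.6% of the wild-type mean where the others averaged 9.43%. Without KO 4, which was left out because its Il10 stood apart, the log2 difference was -3.41 ± 0.26.

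The regulators of Il10 followed 2 patterns. Maf encodes c-Maf, a basic leucine zipper factor that binds and activates the Il10 gene (chr8:115703253-115706894). It read 378, 332, 280.3 and 317 CPM in the wild-type libraries and 145, 117, 326 and 177 CPM in the knock-out libraries. KO 1, KO 2 and KO 5 all lay below every wild-type library, while KO 4 lay inside the wild-type range at 99.7% of its mean. The log2 difference was -0.78 ± 0.27 over all libraries and -1.16 ± 0.14 without KO 4.

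Prdm1 encodes Blimp-1, a repressor of many effector genes that works with c-Maf at Il10 (chr10:44437174-44528558). It was even under the wild-type label, at 235, 245, 237 and 234 CPM, and read 159, 149, 237 and 170.2 CPM under the knock-out label. KO 4 again matched the wild-type libraries, at 99.8% of their mean, where the other 3 averaged 67.1%. On the log2 scale the difference was -0.41 ± 0.13, and -0.58 ± 0.05 without KO 4.

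Ahr and Eomes did not share this pattern. Ahr encodes the aryl hydrocarbon receptor, a ligand-sensing factor that partners c-Maf at Il10 (chr12:35497979-35534989). It read 72.8, 77.4, 60.6 and 101.2 CPM in the wild-type libraries and 103.1, 75.6, 101.2 and 144.1 CPM in the knock-out ones, so the groups overlapped and the knock-out mean was higher (log2 0.44 ± 0.20). Eomes encodes a T-box factor of cytotoxic and IL-10-producing CD4 T cells (chr9:118478186-118486132). Its values were 213, 253, 309 and 174 CPM against 218, 235, 241 and 223 CPM, with all 4 knock-out libraries inside the wild-type range and a log2 difference of -0.05 ± 0.15 that turned to 0.10 without WT 4.

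Of the inhibitory receptors, Lag3 had the largest log2 difference. It encodes LAG-3, a CD4-related receptor that binds MHC class II (chr6:124904359-124912434). It read 210.0, 144, 118 and 114 CPM in the wild-type libraries and 37.3, 54.1, 114 and 37.9 CPM in the knock-out libraries. KO 4 was the only knock-out library that reached the wild-type range, where it lay beside the lowest library, WT 5. The log2 difference was -1.27 ± 0.36, and -1.77 ± 0.23 without KO 4.

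Havcr2 encodes TIM-3, a receptor of terminally differentiated and exhausted T cells that myeloid cells also carry (chr11:46454931-46481255). Levels were 113, 122, 101.2 and 111 CPM in the wild-type libraries and 67.7, 47.6, 144 and 64.3 CPM in the knock-out ones. Here KO 4 was above every wild-type library, at 129% of their mean, and the other 3 were below them all, at 53.6%. The log2 difference was -0.47 ± 0.29 with KO 4 and -0.90 ± 0.11 without it.

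Tigit encodes a receptor that competes with CD226 for nectin-family ligands (chr16:43626137-43665125). It read 214, 208, 184 and 161 CPM against 145, 131, 192 and 119 CPM. KO 4 was inside the wild-type range and the other 3 knock-out libraries were below it. The labels differed by -0.39 ± 0.15 (log2), and by -0.55 ± 0.10 without KO 4. Tigit overlaps Zbtb20 in the annotation, and without the strand setting of the counting their reads cannot be told apart.

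Cd200r1 encodes an inhibitory receptor for CD200, best known on myeloid cells and also found on T cells (chr16:44765736-44794977). Levels were 37.6, 31.4, 28.2 and 38.6 CPM in the wild-type libraries and 25.1, 16.9, 21.0 and 21.1 CPM in the knock-out ones. The groups did not overlap, and KO 4 lay among the other knock-out libraries. The log2 difference was -0.69 ± 0.13, and the same without KO 4. Cd200r1 has close relatives nearby, and reads shared with them make its level uncertain.

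Itga2 encodes CD49b, the collagen-binding integrin subunit also carried by NK cells and platelets (chr13:114833081-114932100). It was higher under the knock-out label, at 26.4, 21.6, 21.3 and 24.5 CPM against 16.0, 16.5, 12.4 and 17.5 CPM, with no overlap between the groups. This was 0.59 ± 0.11 on the log2 scale. Lag3 and Itga2, whose products are read together to recognise type 1 regulatory cells, thus had mean differences of opposite sign.

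**Figure D1:**
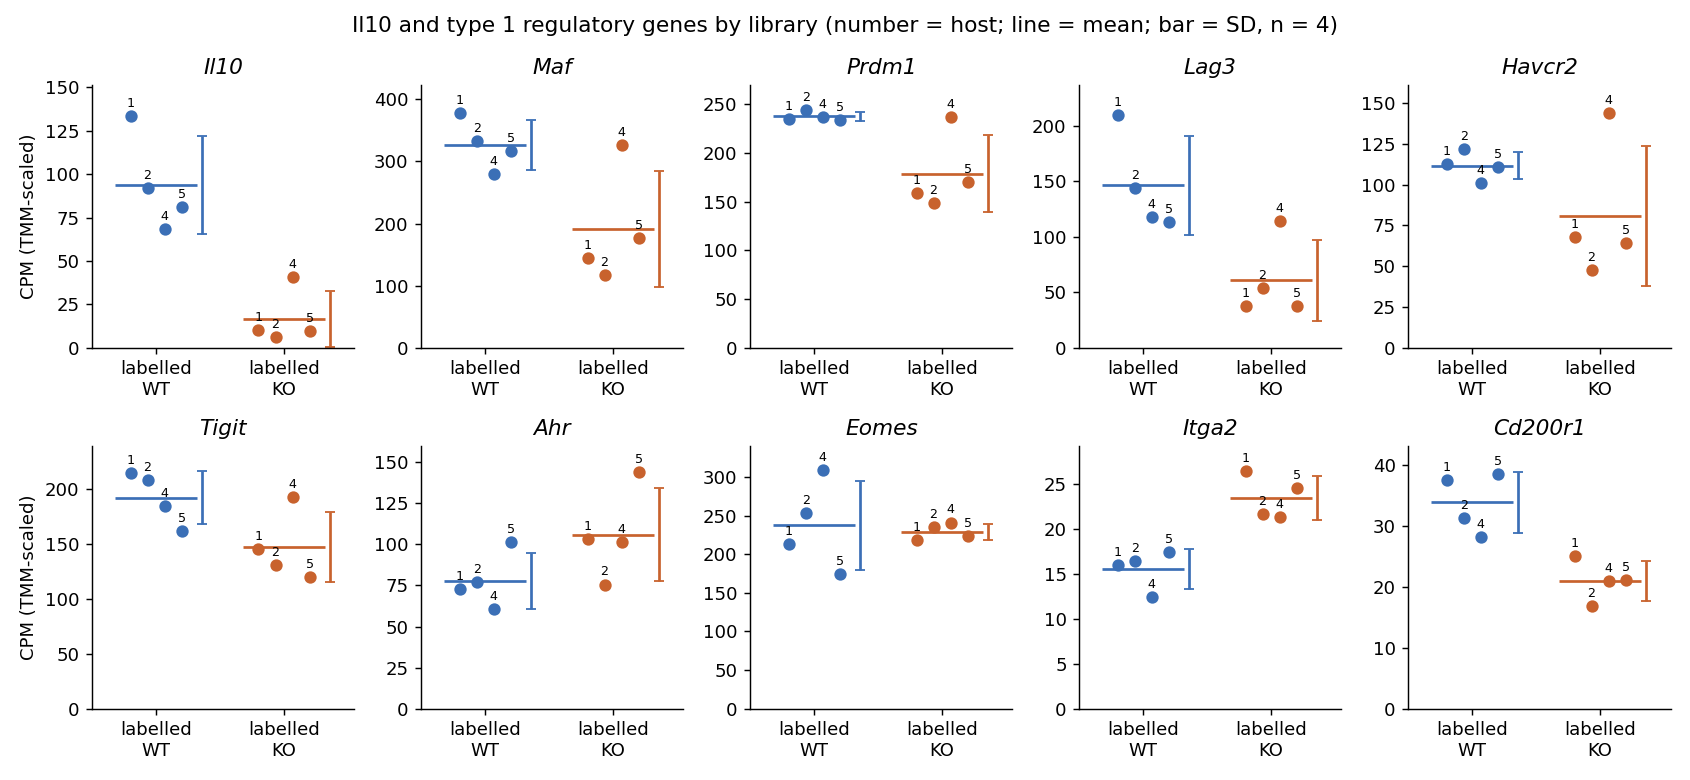
Level of each of the 10 genes in CPM (linear axis from 0), 1 point per library numbered by host, wild-type label (left) beside knock-out label (right), with lines for the mean and bars for the SD (n = 4). For Il10, Lag3, Maf, Prdm1, Havcr2 and Tigit the KO 4 point sits above the other 3 knock-out libraries, whereas for Cd200r1 and Itga2 all 4 knock-out libraries lie on one side of the wild-type ones.

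As a description, 3 of the 10 were past the threshold used for all genes (an adjusted p below 0.05 by edgeR's quasi-likelihood test): Il10 and Cd200r1 lower and Itga2 higher. Among all genes tested, 10.0% were past it, 3.84% lower and 6.20% higher. The groups did not overlap for the same 3 genes, and for 16.0% of all genes. Without KO 4, 7 of the 10 were past it as lower (Il10, Maf, Prdm1, Lag3, Havcr2, Tigit and Cd200r1) against 4.48% of all genes, and 1 higher (Itga2) against 6.06%. Since the set was selected on this contrast and KO 4 was known to be high for Il10, nothing is read from these shares. The median log2 difference of the 10 was -0.44, and -0.64 without KO 4, where the medians of all genes were -0.0026 and 0.00052. Nothing in the labels says that the hosts are separate experiments, so errors here measure the spread between these libraries. In such bulk samples, fewer cells of a type and less RNA per cell cannot be told apart.

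**Figure D2:**
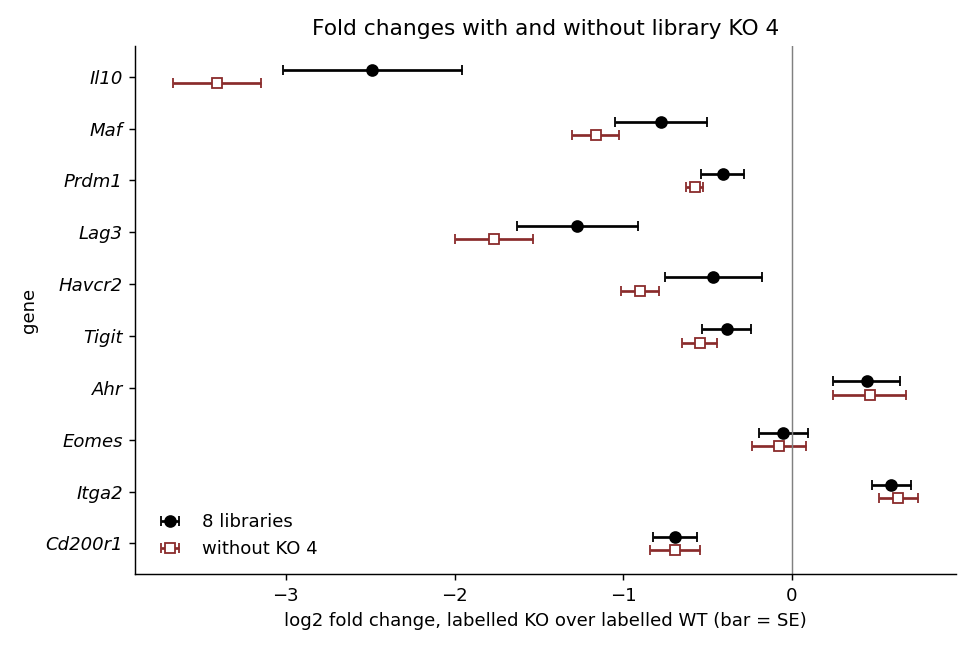
Log2 difference of each of the 10 genes (knock-out label over wild-type label) with its standard error, over all 8 libraries and without KO 4. Il10 moves from -2.49 to -3.41 and Maf from -0.78 to -1.16, while Cd200r1 stays at -0.69 and Itga2 goes from 0.59 to 0.63.

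Compared per kilobase of the deposited gene length, so that genes can be set side by side, Tigit had the highest level under the wild-type label at 199 ± 25.3 CPM per kb. Maf (89.7 ± 11.1), Lag3 (73.1 ± 22.2), Il10 (71.8 ± 21.6) and Eomes (56.8 ± 13.7) followed, each overlapping the next in its spread. Prdm1 (43.2 ± 0.890) and Havcr2 (41.0 ± 3.08) did not differ beyond their spread. Ahr (14.2 ± 3.10), Cd200r1 (10.1 ± 1.49) and Itga2 (3.70 ± 0.526) were the lowest. Under the knock-out label Il10 stood at 12.9 ± 12.3 CPM per kb, below Ahr at 19.3 ± 5.16, although their spreads overlapped.

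How far a library departed from the mean of its own label was then compared between genes, on the log2 CPM scale. KO 4 departed upward by 1.68 for Il10, 1.07 for Lag3, 0.96 for Havcr2, 0.88 for Maf, 0.43 for Prdm1 and 0.41 for Tigit. For Eomes (0.07), Cd200r1 (0.01), Ahr (-0.03) and Itga2 (-0.13) it lay near its label's mean. KO 4 was the highest knock-out library for 7 of the 10 genes, and for 34.5% of all genes. Under the wild-type label WT 1 was the highest for Il10, Lag3, Maf and Tigit, departing by 0.56 for both Il10 and Lag3, and other libraries were the highest for the other 6 genes. The SD of log2 Il10 within the knock-out label was 1.16, at the 99.9th percentile of all genes, whose median SD was 0.108.

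**Figure D3:**
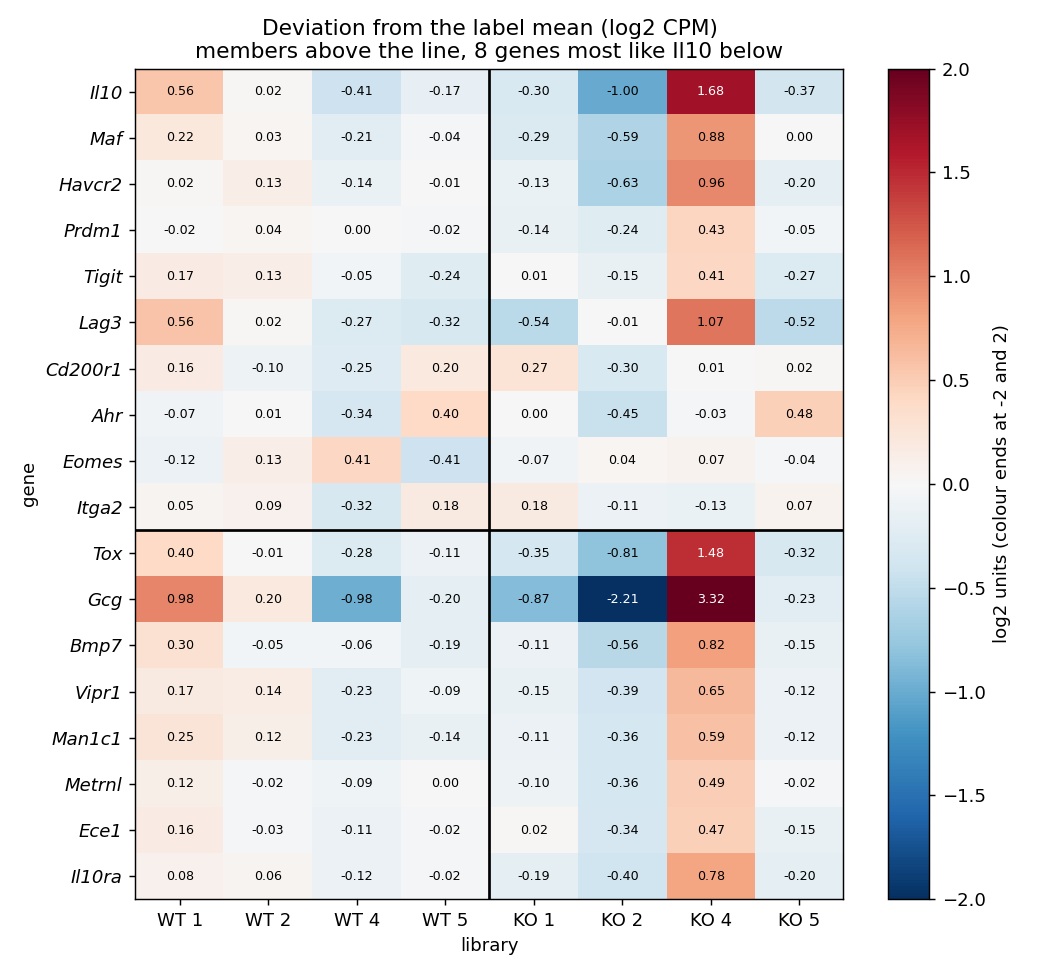
Departure of each library from its label's mean (log2 CPM, colour scale) in columns for the 8 libraries, with the 10 genes in the upper rows and the 8 genes most like Il10, described further on, in the lower rows. The KO 4 column is raised for Il10 (1.68), Lag3 (1.07), Havcr2 (0.96), Maf (0.88), Prdm1 (0.43) and Tigit (0.41), near 0 for Eomes, Cd200r1 and Ahr, and above 0 for each of the lower 8.

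With each label's mean removed, Il10 went with Maf (Pearson r 0.97, Spearman rho 0.88), Havcr2 (0.96 and 0.95), Prdm1 (0.93 and 0.69), Tigit (0.84 and 0.74) and Lag3 (0.83 and 0.60) over the 8 libraries. These are descriptions with no test, and the points share the library totals and the label means. Among these 6 genes the 15 pairs had r from 0.71 to 0.97. Without KO 4 the 15 values ran from -0.41 to 0.87, and r with Il10 was 0.87 for Maf, 0.73 for Havcr2, 0.51 for Tigit, 0.46 for Prdm1 and 0.33 for Lag3. The closeness of most of these pairs therefore rested on KO 4, and that of Il10 with Maf least of them.

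For the other 4 genes r with Il10 over all libraries was 0.34 for Cd200r1, 0.14 for Ahr, -0.03 for Eomes and -0.06 for Itga2. Without KO 4 it was 0.74 for Cd200r1, 0.61 for Itga2, 0.42 for Ahr and -0.37 for Eomes, so that Cd200r1 and Itga2 then lay above Tigit, Prdm1 and Lag3. The split into 6 genes that go with Il10 and 4 that do not thus depended on KO 4. Among themselves, Itga2 went with Cd200r1 (r 0.77) and Ahr (0.68), and Eomes ran opposite to Itga2 (-0.80) and Cd200r1 (-0.73). The Eomes and Itga2 value was -0.81 without KO 4. That library lay near its label's mean for both genes, so leaving it out could change little, and no other library was left out here.

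Promoter sequence from RefSeq (GRCm38.p6) was at hand for 5 of the genes: Prdm1, Havcr2, Tigit, Eomes and Itga2. The 250 bases before the start site are shown for Havcr2 (chr11:46454681-46454930, plus strand) and Prdm1 (chr10:44458749-44458998, minus strand, inside the annotated span of the gene), since these had the highest Pearson r with Il10 of the 5 over all libraries. By Spearman's rho, and by r without KO 4, Tigit lay above Prdm1. Capitals mark matches to the AP-1-like pattern TGANTCA and to the AHR core GCGTG, which reads CACGC where it lies on the other strand.
Havcr2: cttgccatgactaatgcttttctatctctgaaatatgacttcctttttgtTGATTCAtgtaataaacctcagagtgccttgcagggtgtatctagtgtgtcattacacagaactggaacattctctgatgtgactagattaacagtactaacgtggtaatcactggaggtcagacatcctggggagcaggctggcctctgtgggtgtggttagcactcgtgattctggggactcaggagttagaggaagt
Prdm1: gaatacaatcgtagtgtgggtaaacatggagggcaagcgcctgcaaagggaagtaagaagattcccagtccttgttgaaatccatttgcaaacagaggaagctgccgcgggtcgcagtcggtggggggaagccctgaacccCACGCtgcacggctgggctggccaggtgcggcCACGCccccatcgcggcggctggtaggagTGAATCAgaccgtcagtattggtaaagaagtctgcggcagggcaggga
Both strands of the 300 bases from 250 before to 50 after the start were searched. TGANTCA was found once in each of the windows shown, starting at -200 in Havcr2 and -48 in Prdm1 relative to the start site and in none of the other 3. It occurs in 6.75% of the 32851 promoters of the same length. The form TGACTCA occurs in 4.46% of promoters and in none of the 5. GCGTG was found 2 times in Prdm1, once in Itga2 and in 28.2% of promoters. GAAAG, the core bound by Blimp-1, was found once in Tigit and in 51.5% of promoters. TGCTGA, bound by c-Maf, was in none of the 5 and in 16.1% of promoters. A match is a run of letters and not a shown binding site.

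The genes most like Il10 were ranked by the same label-centred correlation among 10403 genes whose log2 CPM averaged 1 or more. Rows without a symbol, unnamed gene models (Gm, Rik and LOC) and antigen receptor segments were left out of this ranking. The first 8 were Tox, Gcg, Bmp7, Vipr1, Man1c1, Metrnl, Ece1 and Il10ra, with r from 0.97 to 1.00, and Maf came at rank 9. Havcr2 ranked 16, Prdm1 44, Tigit 223 and Lag3 252. Tox, which encodes a nuclear factor of chronically stimulated T cells, read 77.2 CPM in KO 4, 15.7 to 22.1 in the other knock-out libraries and 44.3 to 70.6 in the wild-type ones (r 0.996 with and without KO 4). Gcg, the glucagon precursor gene, read 11.7 CPM in KO 4, 0.204 to 0.958 in the other knock-out libraries and 7.64 to 29.7 in the wild-type ones. Il10ra, the ligand-binding chain of the IL-10 receptor, read 186 CPM in KO 4, 81.8 to 94.6 in the other knock-out libraries and 142 to 163 in the wild-type ones.

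Of these 8, Bmp7, a growth factor of the TGF-beta family, fell (log2 -1.29 ± 0.26, edgeR adjusted p = 0.0124) and Vipr1, a receptor for vasoactive intestinal peptide, rose (0.82 ± 0.21, adjusted p = 0.0364). The Vipr1 call was lost in 6 of 8 fits that left out 1 library. Without KO 4, Tox was the only one of the 8 still among the first 8, and with Spearman's rho Gcg and Vipr1 were.

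The receptor side of IL-10 signalling showed no called gene among 6 measured (Il10ra, Il10rb, Jak1, Tyk2, Stat3 and Socs3). Of all genes 10.0% were called, so nothing is read from this count. Stat3, the main signal transducer, had a log2 difference of -0.07 ± 0.08 and Il10rb one of 0.04 ± 0.07, which turned to -0.02 without KO 4. Il10ra had -0.43 ± 0.23 (edgeR adjusted p = 0.296), and -0.77 without KO 4. Since KO 4 was left out for its high Il10 and Il10ra was high there too, nothing is read from that change.

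Among 13 measured inducers of Il10 and their receptors, 2 fell and none rose, where 3.84% of all genes fell and 6.20% rose. Il21, a cytokine that promotes Il10 in CD4 T cells, read 153, 90.5, 129 and 112 CPM in the wild-type libraries and 48.6, 36.6, 50.5 and 56.5 CPM in the knock-out ones. The groups did not overlap and KO 4 lay among the other knock-out libraries (log2 -1.33 ± 0.17, edgeR adjusted p = 0.000997). Il27ra, the receptor chain for the Il10-inducing cytokine IL-27, fell by 0.25 (log2, SE 0.04, edgeR adjusted p = 0.00378). Icos, a costimulatory receptor, had -0.05 ± 0.07 and did not pass.

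Among 22 other regulators of Il10, 2 fell and none rose, where 3.84% of all genes fell and 6.20% rose. Batf, an AP-1 family factor that opens the Il10 locus with Irf4, fell by 0.31 (SE 0.07, edgeR adjusted p = 0.0191), with an adjusted p of 0.0578 without WT 1. Egr2, induced by T cell receptor signalling, fell by 0.43 (SE 0.11, adjusted p = 0.0333), a call lost in 6 of 8 fits that left out 1 library. Irf4 (-0.08), Nfil3 (0.03), Bhlhe40 (-0.05), Bach2 (0.31) and Tbx21 (-0.01) did not pass. All but Irf4 of these 5 changed sign when some library was left out.

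Of 18 measured genes of the wider set of inhibitory and regulatory molecules, 5 rose and 1 fell, where 6.20% of all genes rose and 3.84% fell. Cd244, an NK and cytotoxic cell receptor, went from 0.720 ± 0.358 to 3.51 ± 1.19 CPM (log2 2.28 ± 0.35, edgeR adjusted p = 0.00264). Procr, the protein C receptor, went from 0.697 ± 0.133 to 4.47 ± 2.06 CPM (2.67 ± 0.33, adjusted p = 0.000807). Both were highest in KO 4 (5.16 and 7.48 CPM), as were the summed myeloid and MHC class II markers given at the end, whose part in these rises was not tested. Cd274, which encodes PD-L1, rose by 0.50 ± 0.11, Cd96, a relative of TIGIT that shares a ligand with it, by 0.35 ± 0.06, and Nt5e, the ectonucleotidase CD73, by 0.31 ± 0.07. Without WT 1 the adjusted p of Cd274 was 0.0522, and the Nt5e call was lost in 4 of 8 such fits. Tnfrsf4, the costimulatory receptor OX40, fell by 0.59 (SE 0.10). Pdcd1, which encodes PD-1, read 116, 96.3, 85.7 and 126 CPM against 48.1, 36.2, 110.6 and 58.3 CPM. KO 4 was the only knock-out library inside the wild-type range (log2 -0.75, adjusted p = 0.168, and -1.16 without KO 4). As with Il10ra, nothing is read from the change without KO 4. Ctla4 had -0.26 ± 0.11 and did not pass (adjusted p = 0.195).

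None of 6 measured genes of the Foxp3 regulatory T cell lineage passed. Foxp3 itself read 5.94 ± 4.18 CPM under the wild-type label and 3.34 ± 1.73 under the knock-out label, and its groups overlapped. None of 2 measured AHR target or partner genes and none of 5 measured ligands of the receptors passed. Among the measured relatives and neighbours of the 10 genes none fell, and those that rose included Maff (log2 0.54 ± 0.14) and Mafk (0.29 ± 0.06), which encode small MAF proteins. The Maff call was lost in 5 of 8 fits that left out 1 library. Over the 77 different genes of these lists, 8 rose and 5 fell, with a median log2 difference of 0.03. Of all genes, 6.20% rose and 3.84% fell.

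Il10 lies in a cluster of genes on chromosome 1. Of 48 other genes whose start lies within 1000 kb in the reference, 17 were measured, 1 rose and 3 fell. Of all genes, 6.20% rose and 3.84% fell. The nearest measured genes on each side did not pass: Yod1, a deubiquitinase gene whose start lies at -302.5 kb from that of Il10 (log2 -0.07 ± 0.07), and Mapkapk2, a stress kinase gene at 33.9 kb (0.02 ± 0.06). Cd55 and Cd55b, which encode complement decay factors, fell by 0.62 (SE 0.13, edgeR adjusted p = 0.0139) and 0.68 (SE 0.18, adjusted p = 0.0418), a pair whose reads may be shared, and the Cd55b call was lost in 7 of 8 fits that left out 1 library. Ctse, the protease cathepsin E, went from 322 ± 25.0 to 68.3 ± 6.14 CPM (log2 -2.24 ± 0.08, adjusted p = 5.0e-07). Unlike Il10, Ctse was not raised in KO 4, which read 69.9 CPM against 61.6 to 76.0 in the other knock-out libraries. Rab7b, a lysosomal GTPase gene, rose by 3.84 ± 0.43, from a low 0.505 ± 0.182 to 7.30 ± 3.45 CPM. It was highest in KO 4 (11.3 CPM), as were the summed myeloid markers given at the end, whose part in this rise was not tested.

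**Figure D4:**
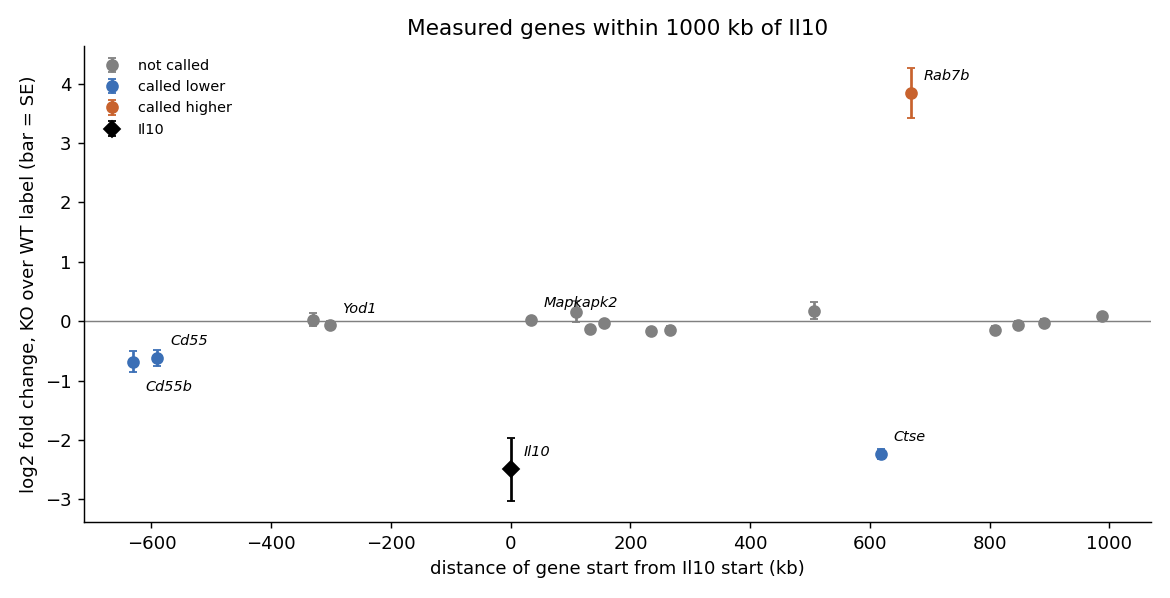
Log2 difference (knock-out label over wild-type label) with its standard error for measured genes against the distance of their start from that of Il10 in kb. Ctse (-2.24) and Il10 (-2.49) are far below 0 and Rab7b (3.84) far above, with the genes between them near 0.

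Myeloid and MHC class II transcripts moved with the labels, and among the knock-out libraries their sums were highest in KO 4. This did not hold for every kind of other cell: KO 4 had the lowest knock-out values for the CD8 sum (8.98 CPM) and Itga2b (1.99 CPM). Of 20 myeloid markers 19 were measured and 16 were called higher, where 6.20% of all genes were. Their summed level was 512 ± 65.8 CPM under the wild-type label (434 to 572) and 1082 ± 319 under the knock-out label (720 to 1467), with KO 4 the highest. Ccr2, which T cells also express, made up 428 CPM of the wild-type sum, and Lyz2 and Csf1r stood at 23.3 and 4.38 CPM there against 201 and 67.7. Of 10 dendritic cell and MHC class II markers 7 were measured and 6 called higher, beside the same 6.20% of all genes. Their sum was 94.6 ± 22.1 against 900.2 ± 370 CPM, again highest in KO 4. The most abundant were Cd74 (46.1 against 401.2 CPM), H2-Aa (12.8 against 158) and H2-Ab1 (10.8 against 138). Cd163, Flt3, Xcr1 and Clec9a were not in the table. The exact permutation test over 70 assignments of the libraries gave two-sided p = 0.0286 for both sums (0.0571 after adjustment over 8 lists), which is the smallest it allows.

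NK and innate lymphoid markers summed to 78.3 against 133 CPM (7 of 9 measured, exact permutation p = 0.0571, adjusted 0.0762), with Areg, Il1rl1 and Klrk1 the most abundant and Ncr1 not in the table. Only Fcer1g (1.57 against 19.8 CPM) and Tyrobp (1.83 against 18.7 CPM) of this list were called higher, where 6.20% of all genes were. The rest did not pass, with Il1rl1 at 17.3 against 17.4 CPM and Klrb1c at 5.50 against 5.41 CPM. Kit and Hdc, the only measured mast cell and basophil markers of 8, summed to 12.2 against 23.8 CPM (exact p = 0.0286, adjusted 0.0571). The CD8 genes summed to 6.49 against 21.0 CPM (exact p = 0.0571, adjusted 0.0762). Of these, Cd8a was higher (4.10 against 19.0 CPM) and Cd8b1 was not (2.39 against 1.95 CPM). The platelet gene Itga2b stood at 1.15 against 2.25 CPM (exact p = 0.0286, adjusted 0.0571). B cell and plasma cell markers (1 of 7 measured) summed to 1.51 against 1.43 CPM, and epithelial markers (5 of 10 measured) to 35.5 against 36.4 CPM. The CD4 T cell identity genes summed to 10278 ± 507 against 9657 ± 372 CPM. Cd247 and Zap70 of the 13 fell, where 3.84% of all genes fell. Several of the 10 genes, Il10, Maf, Havcr2, Cd200r1, Ahr and Itga2 among them, are also expressed by one or more of these other cell types. The part of such cells in the level of any of the 10 genes was not tested. Csf1r had a label-centred r of 0.63 with Il10 over all libraries and 0.26 without KO 4, and Cd3e had 0.30 and 0.18.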

How the data were processed

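Counts per gene were deposited by the authors as 1 table for 8 libraries, with gene lengths. Libraries were made from poly(A) RNA with the TruSeq Stranded kit, and single-end reads (81 bases) came from a NextSeq 500, per the labels' protocols. Per the submitters' processing notes, STAR and mm10 were used. For the STAR version, the counter, its annotation and strandedness, the entry is: not given in the sources used here. The lowest fourth-highest CPM of any gene was 0.987, so low genes had been left out before deposit, and 6 rows have no symbol.

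The labels' statement of the transferred cells gave the groups, 4 libraries each. From the counts, edgeR 4.0.16 (R 4.3.3) fitted its quasi-likelihood model with TMM factors and the label as the only term. All 11354 genes passed filterByExpr. Calls are at a Benjamini-Hochberg adjusted p below 0.05 over all genes. The SE of a log2 difference is its size over the square root of F. Log2 CPM used a prior count of 2. The common coefficient of variation was 0.116. The fit was tested on simulated data.

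The members and lists were chosen with earlier results of these data known. Named are all members, called genes of each list (at most 6) with a fixed set of known regulators, called genes near Il10 with its nearest measured neighbours, the 8 genes most like Il10, and the 3 highest markers where they bear on a result. Alternatives were RLE and total-count scaling, filters, limma-voom (limma 3.58.1), DESeq2 1.42.0, host number as a block, the library code in the sample descriptions as a term, and leaving out libraries. That code is 7 for all libraries but KO 4 and KO 5, where it is 8, and what it stands for is not stated. Positions come from a GRCm38 reference. The values of 1 gene of the wider lists are not reported here.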

Additional observations from a re-analysis of the deposited data

Results flagged for a closer look

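Il10 in KO 4, at 40.8 CPM, lay far from the other 3 knock-out libraries: its gap to the nearest of them was 0.885 of the whole range of the label, above the 0.829 that Dixon's test allows for 4 samples. Of 36 groups of values tested by this criterion 1 was flagged, where 1.8 flags would be expected by chance. The genes were chosen with the Il10 value of KO 4 known, so the criterion restates it and adds no support. The myeloid and MHC class II sums were also highest in KO 4 among the knock-out libraries, and their part in this value was not tested.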

How the results depend on the processing

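The host numbers are shared between labels, but the labels do not say whether a host held both kinds of cells, so libraries were not taken as pairs. Deviations of libraries of the same number had r -0.06, 0.18, -0.14 and 0.26 for hosts 1, 2, 4 and 5. Libraries of different numbers had r from -0.26 (WT 2 with KO 5) to 0.20 (WT 4 with KO 2). These values do not settle whether the libraries are pairs. With host number as a replicate block, 638 genes were called higher and 382 lower, against 704 and 436 without it, and the wider lists had 5 higher and 4 lower, against 8 and 5; the block ended the calls of Cd274, Cd55b, Egr2, Maff, Nt5e and Vipr1. With the library code as a term, 249 genes were called lower and 5 of the wider lists higher. Code 8 occurs only in KO 4 and KO 5, so the label difference in that fit comes from KO 1 and KO 2. There Il10 had -3.49 ± 0.58, and Maf and Prdm1 were past the threshold as lower. The Cd200r1, Batf, Cd274, Cd55b, Egr2, Maff, Mafk and Vipr1 calls were lost. Leaving out 1 library gave 276 to 509 genes lower, 5 to 10 of the wider lists higher and 3 to 11 lower, and 2 to 7 of the 10 genes lower. The lowest counts of genes lower were without KO 1 (276) and WT 1 (277), the lowest of the wider lists (5 higher, 3 lower) without WT 1, and the highest of the wider lists lower (11) and of the 10 genes (7) without KO 4. The log2 difference of Il10 ran from -3.41 to -2.22 in these fits. Counts of the 10 genes past the threshold are descriptions, since the genes were chosen on this contrast. Without KO 2 and KO 4 the wider lists had 4 higher and 10 lower and the 10 genes 6 lower, where 500 of all genes were higher and 326 lower. Wider lists lower numbered 8 with total library size, 8 with DESeq2 and 10 with limma-voom, and members lower 4, 4 and 7. Of all genes, 539, 653 and 589 were called lower in the same 3 fits, against 436 in the main one. Without KO 4 the median r of Il10 with the other genes was 0.51, and 1 of the 8 genes most like Il10 was shared, against 2 with Spearman's rho. The sign changed for genes near 0. Leaving out single libraries gave log2 differences from -0.171 to 0.0974 for Eomes, -0.0339 to 0.496 for Bach2, -0.124 to 0.0402 for Bhlhe40, -0.240 to 0.0477 for Ece1, -0.0216 to 0.0827 for Il10rb, -0.0261 to 0.0548 for Mapkapk2, -0.0754 to 0.0954 for Nfil3 and -0.0951 to 0.0272 for Tbx21. Without KO 2 and KO 4, Bach2 was -0.167, Il10rb -0.0363 and Nfil3 -0.0923. With the library code Il10rb was -0.0420, Mapkapk2 -0.0236 and Nfil3 -0.119, and with limma-voom Mapkapk2 was -0.0110 and Nfil3 -0.0584. The causes were not tested.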

Other observations

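Entpd1, the ectonucleotidase CD39, also had its highest value in KO 4, at 93.4 CPM, against 28.8 to 50.9 CPM in the other knock-out libraries and 64.1 to 69.96 in the wild-type ones, with a label-centred r of 0.93 with Il10 (0.63 without KO 4). Pdcd1 had r 0.92 (0.66 without KO 4), whereas Batf had -0.24 and Il21 0.38. These were picked after their values were seen.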
